A study of Mus musculus with 18 samples.

Results

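The simple epithelial keratins Krt7, Krt8, Krt18, Krt19 and Krt20, the related keratins Krt42 and Krt17, and vimentin (Vim) were followed through 6 groups of mouse embryonic stem (ES) cells grown in 3D. The 8 genes were chosen by name, as the rows of the deposited count table whose Ensembl identifiers carry these symbols, out of 49671 genes in all. Each symbol matched 1 identifier. The question behind the series was how Gsk3 inhibition, Fgf and Activin signals and the naive transcription factor Esrrb act on the epithelialisation of pluripotent cells embedded in an extracellular matrix gel.

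Keratins are the intermediate filament proteins of epithelial cells. They assemble from pairs of a type I and a type II chain, so that Krt8 or Krt7 (type II) needs a partner such as Krt18, Krt19, Krt20, Krt42 or Krt17 (type I). Krt8 and Krt18 are the first keratins of the early embryo and the main pair of single-layered epithelia, whereas Krt17 belongs mainly to skin appendages and Krt20 to the gut lining. Vimentin, a type III protein that assembles without a keratin partner, is the usual filament of mesenchymal cells and of many cells in culture.

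Wild-type E14 ES cells, kept before in 2i with Lif and used at passage 20, were grown for 48 h in growth factor depleted Matrigel in N2B27 medium, a serum-free base medium. They received the solvent alone (DMSO), the Gsk3 inhibitor CHIR99021 at 3 µM (CH), CHIR99021 at 3 µM with the Mek inhibitor PD0325901 at 0.4 µM (2i), or Fgf2 at 12 ng/ml with Activin A at 20 ng/ml (FGF2_Activin). Esrrb fl/fl ES cells at passage 25 carried a tamoxifen-inducible Cre (MerCreMer), were left untreated (Esrrb_NT) or given 4OHT for 1 day to delete Esrrb (Esrrb_4OHT), and were then grown in 3D for 24 h with CHIR99021 at 3 µM in both groups. Each group held 3 samples, 18 in all. The labels do not say whether the samples came from separate cultures, so that p-values measure the spread between these samples, which may be technical. The Esrrb fl/fl cells differed from the E14 cells in line, passage and time in culture, which cannot be told apart. No group received 4OHT without the floxed gene, so that loss of Esrrb cannot be told apart from 4OHT or Cre activity. Esrrb deletion below stands for the 4OHT treatment of these cells.

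Wild-type samples held 25388139 to 37158661 counted reads and Esrrb fl/fl samples 19915222 to 20140699. Values below are CPM (reads of a gene scaled to a common library size) after trimmed mean of M-values (TMM) scaling, and a gene was called where edgeR's quasi-likelihood F-test gave a Benjamini-Hochberg adjusted p under 0.01 and the absolute log2 fold change above 1. Of the 8 genes, 7 had enough reads to be tested in both cell lines. Krt20 had not: it had 1 count in each of Esrrb_4OHT replicates 1 and 2 and 0 counts in every other sample. Esrrb itself stood at 142, 110 and 109 CPM in Esrrb_NT and at 58.9, 63.8 and 59.8 CPM in Esrrb_4OHT, lower in every treated sample. Reads over the undeleted exons also count towards Esrrb, so that its level is not a measure of how many cells had lost the gene. Among the E14 cells, Esrrb was between 6.87 and 30.2 CPM in DMSO and FGF2_Activin and between 286 and 566 CPM in CH and 2i.

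On the mouse assembly GRCm38 the genes lie in a few places. Krt7 (ENSMUSG00000023039, chromosome 15, 101411043 to 101430313, plus strand), Krt8 (ENSMUSG00000049382, chromosome 15, 101996698 to 102004482, minus strand) and Krt18 (ENSMUSG00000023043, chromosome 15, 102028180 to 102032027, plus strand) share a chromosome. Krt8 and Krt18 are separated by 23698 bases and are read away from each other. Krt20 (ENSMUSG00000035775, chromosome 11, 99428403 to 99438150), Krt19 (ENSMUSG00000020911, chromosome 11, 100140810 to 100148665), Krt17 (ENSMUSG00000035557, chromosome 11, 100256217 to 100261029) and Krt42 (ENSMUSG00000053654, chromosome 11, 100262882 to 100269871) all lie on the minus strand. Krt17 and Krt42 are neighbours, 1853 bases apart. Vim (ENSMUSG00000026728) spans 13573927 to 13582826 on the plus strand of chromosome 2.

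Promoter sequences from RefSeq (GRCm38.p6, 250 bases before to 50 after the annotated start) were matched by symbol for 6 of the 8 genes, namely Krt7, Krt8, Krt18, Krt20, Krt42 and Vim. Those of Krt8 and Krt18, the divergent pair whose levels moved together, and of Vim, which moved against them in the wild-type cells, are shown 5′ to 3′ on the strand of the gene. Capitals mark matches to any of 6 letter patterns, searched on both strands and spelled out after the sequences.
Krt8, chr15:102004293-102004592, minus strand: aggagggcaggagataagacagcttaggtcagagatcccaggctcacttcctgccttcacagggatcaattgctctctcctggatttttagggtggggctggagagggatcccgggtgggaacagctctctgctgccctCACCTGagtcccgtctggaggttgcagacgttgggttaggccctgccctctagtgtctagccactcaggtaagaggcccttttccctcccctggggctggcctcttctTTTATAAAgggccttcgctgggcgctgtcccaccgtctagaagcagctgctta
Krt18, chr15:102027966-102028265, plus strand: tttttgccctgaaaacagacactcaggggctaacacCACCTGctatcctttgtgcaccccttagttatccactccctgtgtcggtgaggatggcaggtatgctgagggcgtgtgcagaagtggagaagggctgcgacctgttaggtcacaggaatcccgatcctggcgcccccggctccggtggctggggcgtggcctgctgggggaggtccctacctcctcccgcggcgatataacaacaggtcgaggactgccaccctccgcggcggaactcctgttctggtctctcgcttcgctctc
Vim, chr2:13574061-13574360, plus strand: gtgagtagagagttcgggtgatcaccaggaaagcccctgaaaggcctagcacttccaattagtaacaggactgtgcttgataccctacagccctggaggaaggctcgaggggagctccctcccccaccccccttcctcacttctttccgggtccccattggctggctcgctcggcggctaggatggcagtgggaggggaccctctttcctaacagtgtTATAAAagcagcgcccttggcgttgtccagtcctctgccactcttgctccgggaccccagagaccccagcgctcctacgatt
The E-box CAGGTG was found in Krt8, Krt18 and Krt7, each time on the opposite strand as CACCTG, and in 20.2% of all 32851 promoters of that table. The TATA box letters TATAAA were found in Krt8, where matches on both strands overlap, and in Vim, Krt42 and Krt20, against 13.6% of all promoters. The GC box GGGCGG was present 4 times in Krt7 and in no other of the 6, against 35.7% of all promoters. AAGGTCA, the core of the site that Esrrb binds, occurred only in Krt20, where it overlaps the TATA letters, against 4.72% of all promoters. The Tcf/Lef letters CTTTGAT occurred in none of the 6, against 3.73% of all promoters. The AP-1 letters TGANTCA also occurred in none of them, against 7.81% of all promoters. These matches describe the letters of the windows and were not tested against the levels. From published data on DNA bound by Esrrb, the authors report binding at Krt18. A window without AAGGTCA thus does not speak to binding elsewhere at a gene.

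**Figure D1:**
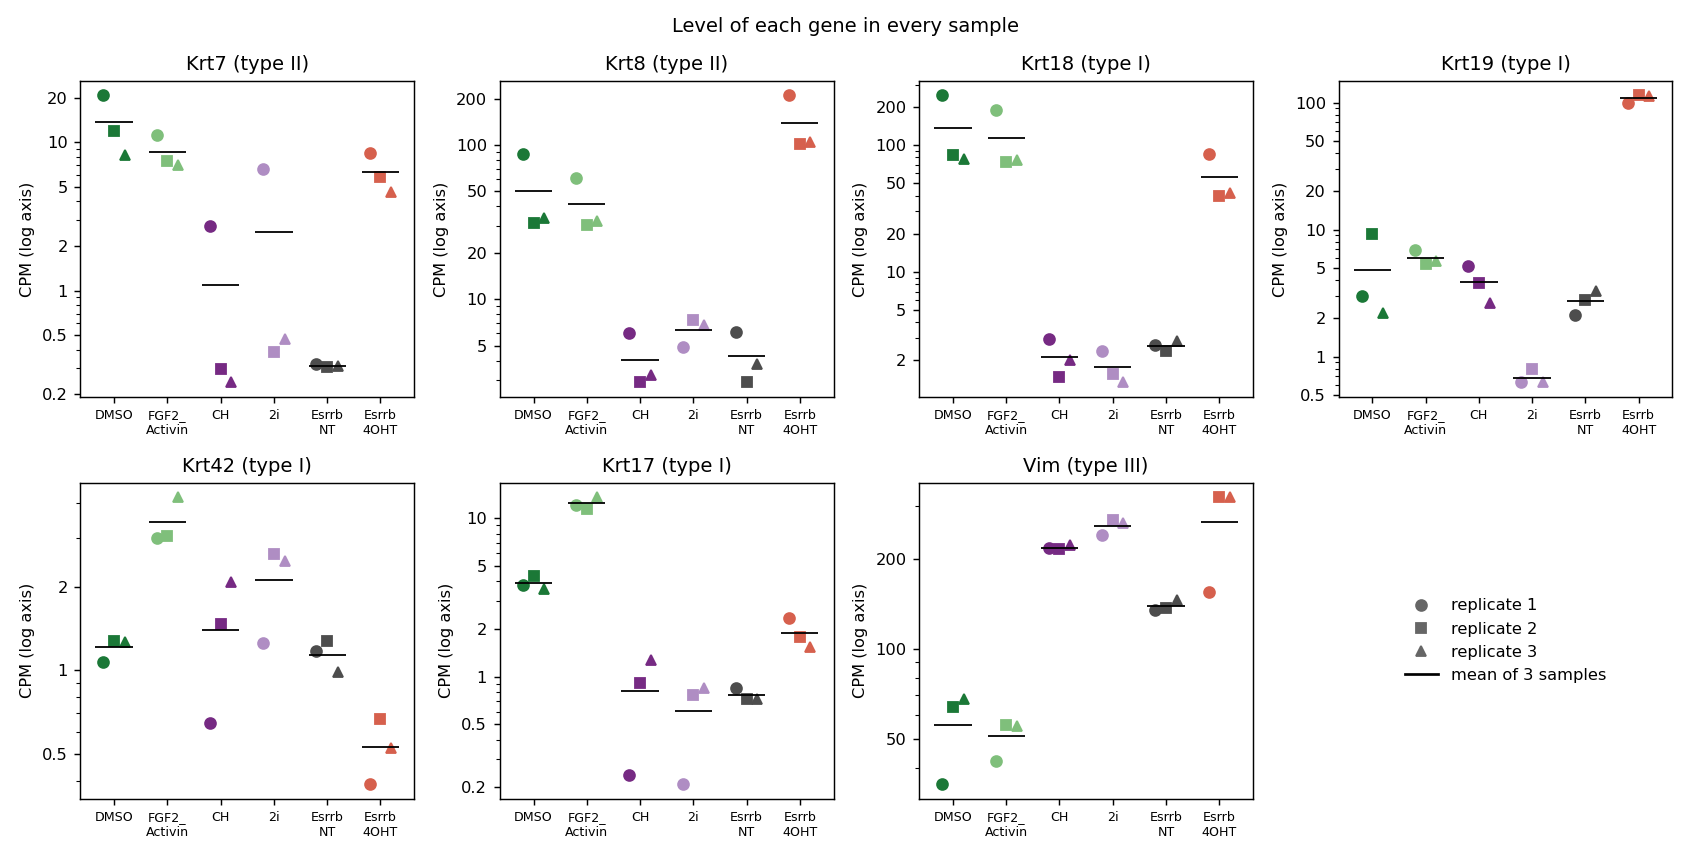
CPM (log axis, a separate range in each panel) of the 7 tested genes in the 18 samples; colours stand for groups, marker shapes for replicates and black lines for the mean of 3 samples. Krt8 and Krt18 were high in DMSO, FGF2_Activin and Esrrb_4OHT and low in CH, 2i and Esrrb_NT, while Krt19 at 99.0 to 114 CPM stood out in Esrrb_4OHT.

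Krt18 was lower with Gsk3 inhibition, by the largest log2 fold change of the 8 genes. Its level in DMSO was 247, 82.9 and 78.0 CPM in replicates 1, 2 and 3, and 2.96, 1.47 and 2.00 CPM in CH. It was 189, 73.8 and 76.6 CPM in FGF2_Activin and 2.37, 1.56 and 1.34 CPM in 2i. The lowest sample of the first kind lay far above the highest of the second in both comparisons, and replicate 1 was the highest sample in each of these 4 groups. CH was lower than DMSO by a log2 fold change of -5.99 (standard error, SE 0.62, adjusted p = 2.28e-05, edgeR), and 2i lower than FGF2_Activin by -6.02 (SE 0.62, adjusted p = 1.44e-05, edgeR). Neither CH and 2i nor DMSO and FGF2_Activin differed in Krt18 by the test, with log2 fold changes of -0.30 (95% confidence interval -1.71 to 1.12) for 2i against CH and -0.27 (-1.30 to 0.77) for FGF2_Activin against DMSO.

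In the Esrrb fl/fl cells, grown with CHIR99021 throughout, Krt18 was 2.66, 2.36 and 2.85 CPM without 4OHT, inside the range of the CH samples. After 4OHT it was 85.2, 39.5 and 42.2 CPM. The treated samples were all above the untreated ones, by a log2 fold change of 4.41 (SE 0.35, adjusted p = 1.78e-05, edgeR). The order of group means was DMSO, FGF2_Activin, Esrrb_4OHT, Esrrb_NT, CH and 2i. Neighbours in that order had overlapping ranges, except Esrrb_4OHT and Esrrb_NT.

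Krt8, the type II partner of Krt18, followed it over a smaller range. DMSO samples stood at 87.1, 31.2 and 33.5 CPM and CH samples at 6.06, 2.88 and 3.20 CPM. FGF2_Activin samples stood at 61.1, 30.5 and 32.1 CPM and 2i samples at 4.88, 7.31 and 6.84 CPM. No inhibitor sample reached the lowest sample of the comparison group. The log2 fold changes were -3.64 for CH against DMSO (SE 0.48, adjusted p = 0.000132, edgeR) and -2.70 for 2i against FGF2_Activin (SE 0.46, adjusted p = 0.000524, edgeR). In 2i against CH the change was 0.65 (95% confidence interval -0.37 to 1.67) with all samples. Leaving out replicate 1 of every group, which was the highest in CH and the lowest in 2i, gave 1.23 and a call (adjusted p = 3.63e-06, edgeR). That adjusted p measures only the spread between replicates 2 and 3, which over all genes lay closer to each other than to replicate 1.

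Krt8 rose with Esrrb deletion, past its level in DMSO. Esrrb_NT samples held 6.16, 2.92 and 3.78 CPM and Esrrb_4OHT samples 210, 102 and 104 CPM, above every DMSO sample. The log2 fold change was 5.02 (SE 0.37, adjusted p = 1.33e-05, edgeR). Of the longest Krt8 transcript, 51.8% matched Gm36026 or the pseudogene Krt8-ps over at least 75 bases at 95% identity or more, so that its reads can be shared or lost between them and its level is less certain than the others. Krt8-ps itself received at most 15 counts in any sample, in Esrrb_4OHT replicate 1 where Krt8 had 4307. Reads were counted without regard to strand, and 5.16% of the Krt8 exon length overlaps Gm36026 on the other strand.

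Krt7, the other type II chain and a keratin of ducts and simple epithelia, was high where Krt8 was high, at lower CPM. It stood at 20.7, 12.0 and 8.22 CPM in DMSO and at 11.2, 7.46 and 7.02 CPM in FGF2_Activin. CH samples held 2.72, 0.294 and 0.240 CPM and 2i samples 6.65, 0.383 and 0.469 CPM. Replicate 1 of CH and of 2i was thus 10.2 and 15.6 times the mean of the other 2 samples, and the call turned on these 2 libraries and on the fit. With all samples the log2 fold change for CH against DMSO was -3.63 (SE 1.10, adjusted p = 0.0201, edgeR) and for 2i against FGF2_Activin -1.79 (SE 1.01, adjusted p = 0.161, edgeR), neither of which was a call. DESeq2 called the first (-3.65, adjusted p = 0.00585). Blocking on the replicate number made calls of both, at -3.99 (adjusted p = 0.000262, edgeR) and -2.41 (adjusted p = 0.00343, edgeR). Without CH replicate 1 the first was -5.65 (adjusted p = 0.00596, edgeR), and without 2i replicate 1 the second was -4.31 (adjusted p = 0.00408, edgeR).

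No such sample was seen in the Esrrb fl/fl cells. Krt7 was 0.319, 0.307 and 0.310 CPM in Esrrb_NT, from 6 reads in each library, and 8.42, 5.84 and 4.59 CPM in Esrrb_4OHT. It rose by a log2 fold change of 4.30 (SE 0.33, adjusted p = 1.64e-05, edgeR), to a range that overlapped those of FGF2_Activin and DMSO.

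Krt19, the smallest keratin and a type I chain without the usual tail domain, followed Krt18 in 2i against FGF2_Activin but was not called in CH against DMSO. It was 3.02, 9.26 and 2.20 CPM in DMSO and 5.14, 3.83 and 2.64 CPM in CH, and these ranges overlapped. The log2 fold change was -0.32 (95% confidence interval -1.31 to 0.67, adjusted p = 0.606, edgeR), and without DMSO replicate 2, the highest sample, it was 0.57. FGF2_Activin samples held 6.89, 5.32 and 5.67 CPM and 2i samples 0.627, 0.796 and 0.625 CPM, which did not overlap. Krt19 was lower in 2i than in FGF2_Activin by -3.12 (SE 0.51, adjusted p = 0.000402, edgeR).

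In 2i against CH the call for Krt19 depended on the fit. Every 2i sample lay below every CH sample, with a log2 fold change of -2.50 (SE 0.51, adjusted p = 0.0128, edgeR) that missed the threshold. With the replicate block it passed (-2.50, adjusted p = 0.00365, edgeR). The difference between the changes of CH against DMSO and of 2i against FGF2_Activin was 2.80 (SE 0.67, adjusted p = 0.0293, edgeR), and 2.95 with the block (adjusted p = 0.0061, edgeR).

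After Esrrb deletion Krt19 rose, with the largest log2 fold change of the 8 genes. Esrrb_NT samples stood at 2.13, 2.77 and 3.26 CPM, overlapping the CH samples, and Esrrb_4OHT samples at 99.0, 114 and 113 CPM. The log2 fold change was 5.31 (SE 0.13, adjusted p = 1.66e-07, edgeR). No wild-type sample exceeded 9.26 CPM. Unlike Krt8 and Krt18, replicate 1 was here slightly below the other 2 samples.

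Krt17, a type I keratin best known from hair follicles and wounded skin, was highest in FGF2_Activin. It stood at 12.1, 11.5 and 13.6 CPM there and at 3.79, 4.29 and 3.55 CPM in DMSO. CH samples held 0.238, 0.916 and 1.28 CPM and 2i samples 0.209, 0.767 and 0.844 CPM. The 4 wild-type groups therefore fell into 3 levels without overlap between them. Krt17 was lower in CH than in DMSO by -2.27 (SE 0.49, adjusted p = 0.00324, edgeR) and lower in 2i than in FGF2_Activin by -4.33 (SE 0.51, adjusted p = 3.96e-05, edgeR). The first call was lost without DMSO replicate 2 (-2.19, adjusted p = 0.0113, edgeR) and without CH replicate 2 (-2.38, adjusted p = 0.0119, edgeR). FGF2_Activin against DMSO gave 1.68 (SE 0.44, adjusted p = 0.0564, edgeR), which the block turned into a call (1.67, adjusted p = 0.00434, edgeR).

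Esrrb_NT samples held 0.850, 0.717 and 0.724 CPM of Krt17 and Esrrb_4OHT samples 2.34, 1.77 and 1.53 CPM. The groups did not overlap, and the log2 fold change was 1.29 (SE 0.25, adjusted p = 0.00217, edgeR). This call was lost without Esrrb_NT replicate 2 (1.24) or 3 (1.25), each with an adjusted p of 0.0117 in edgeR.

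Krt42, a type I keratin gene next to Krt17, was low in all 18 samples. DMSO samples stood at 1.07, 1.28 and 1.27 CPM and FGF2_Activin samples at 3.01, 3.06 and 4.21 CPM. CH samples held 0.647, 1.47 and 2.08 CPM and 2i samples 1.25, 2.62 and 2.47 CPM. Only FGF2_Activin stood clear of the other wild-type groups. Against DMSO its log2 fold change was 1.5 (SE 0.39, adjusted p = 0.0531, edgeR), and 1.49 with the block (adjusted p = 0.00372, edgeR). CH against DMSO gave 0.21 (95% confidence interval -0.67 to 1.08) and 2i against FGF2_Activin -0.69 (-1.51 to 0.14).

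In the Esrrb fl/fl cells Krt42 went from 1.17, 1.28 and 0.983 CPM to 0.389, 0.670 and 0.526 CPM after 4OHT. This was the only fall among the 7 genes in that comparison, with a log2 fold change of -1.10 (SE 0.28, adjusted p = 0.00839, edgeR), from 8 to 25 reads a library. The call was lost whichever of the 6 samples was left out, with adjusted p between 0.0119 and 0.0347 in edgeR and log2 fold changes between -1.32 and -0.93.

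Vim moved against Krt8 and Krt18 in the wild-type cells. It was 35.2, 64.0 and 67.9 CPM in DMSO and 217, 216 and 223 CPM in CH. It was 42.0, 55.4 and 55.2 CPM in FGF2_Activin and 240, 269 and 264 CPM in 2i. Every inhibitor sample was above every sample without inhibitor. Vim was higher in CH than in DMSO by 1.97 (SE 0.21, adjusted p = 2.43e-05, edgeR) and higher in 2i than in FGF2_Activin by 2.34 (SE 0.21, adjusted p = 4.58e-06, edgeR). FGF2_Activin and DMSO overlapped, with a log2 fold change of -0.13 (95% confidence interval -0.57 to 0.31), and 2i against CH gave 0.24 (-0.19 to 0.67).

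With Esrrb deletion Vim did not fall as the keratins rose. Esrrb_NT samples stood at 135, 137 and 146 CPM and Esrrb_4OHT samples at 155, 322 and 322 CPM. All treated samples were above the untreated ones, but replicate 1 only narrowly. The log2 fold change of 0.93 (SE 0.24, adjusted p = 0.00848, edgeR) was just under the fold threshold. Without Esrrb_4OHT replicate 1 it was 1.21 and a call (adjusted p = 1.71e-06, edgeR).

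**Figure D2:**
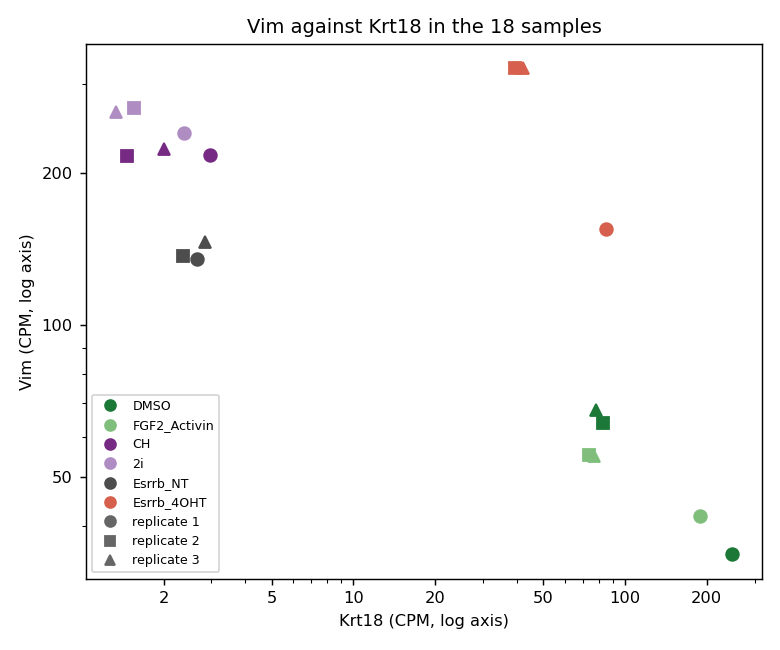
Vim against Krt18 in CPM, both on log axes, for the 18 samples; colours stand for groups and shapes for replicates. Wild-type samples fall at low Krt18 with Vim at 216 CPM or more, or at high Krt18 with Vim at 67.9 CPM or less, and the 3 Esrrb_4OHT samples combine Krt18 of 39.5 to 85.2 CPM with Vim of 155 to 322 CPM.

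**Figure D3:**
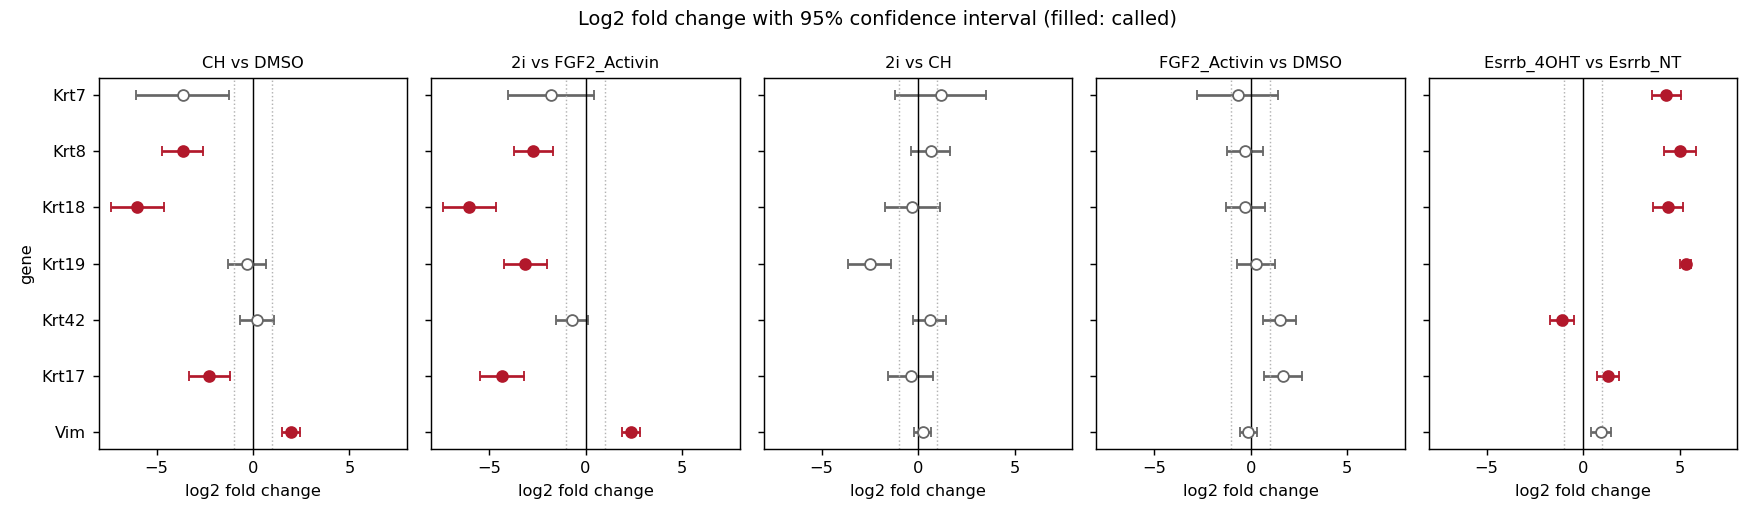
Log2 fold changes of the 7 tested genes in 5 comparisons, with 95% confidence intervals; filled red points were called and open grey points were not, and dotted lines mark -1 and 1. Krt8 and Krt18 lie left of 0 in the first and second panels and right of 0 in the last, and no gene was called in 2i against CH or FGF2_Activin against DMSO.

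Set side by side, 1 gene was higher (Vim) and 3 lower (Krt8, Krt18 and Krt17) in CH than in DMSO, where 17.7% of 16413 tested genes were called, 7.51% higher and 10.2% lower. In 2i against FGF2_Activin, Vim was higher and Krt8, Krt18, Krt19 and Krt17 were lower, where 23.5% of tested genes were called, 9.13% higher and 14.4% lower. The median log2 fold change of the 7 genes was -2.27 in the first and -2.70 in the second, beside -0.002 and 0.002 over all tested genes. In 2i against CH none of the 7 was called, where 1.99% of tested genes were, 0.317% higher and 1.67% lower. In FGF2_Activin against DMSO none was called either, where 1.25% of tested genes were, 0.902% higher and 0.347% lower. At an unadjusted p under 0.05 there was 1 gene (Krt19) in 2i against CH and there were 2 (Krt42 and Krt17) in FGF2_Activin against DMSO, and DESeq2 called the same 1 and the same 2. With the block these genes were called too, 1 and 2 of 7. Over all tested genes, calls in 2i against CH rose from 326 to 672 with the block and to 605 with DESeq2. In FGF2_Activin against DMSO they rose from 205 to 424 with the block and to 379 with DESeq2. The difference of the first pair of changes was called for none of the 7 without the block and for Krt19 with it, where 2.17% of tested genes were called without the block. In that difference 2 of the 7 had an unadjusted p under 0.05 (Krt19 and Krt17), and DESeq2 called 1. In Esrrb_4OHT against Esrrb_NT, Krt7, Krt8, Krt18, Krt19 and Krt17 were higher and Krt42 was lower, where 16.7% of 14893 tested genes were called, 12.8% higher and 3.87% lower. These are bulk samples, in which fewer cells of a type and less RNA per cell cannot be told apart.

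Keratin RNA in Esrrb_4OHT did not have the make-up seen in DMSO. CPM per kilobase of transcript, which can be compared between genes, put the ratio of Krt8 to Krt18 at 0.237 to 0.315 in the 6 DMSO and FGF2_Activin samples. The ratio was 1.17 to 1.5 in CH, 1.51 to 3.74 in 2i, 0.909 to 1.70 in Esrrb_NT and 1.81 to 1.90 in Esrrb_4OHT. Krt18 thus outweighed Krt8 in every sample of DMSO and FGF2_Activin, and Krt8 outweighed Krt18 in every CH, 2i and Esrrb_4OHT sample, with the uncertainty that shared sequence brings to Krt8.

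On the same scale Krt18 made up 78.0% to 97.1% of the summed type I keratins Krt18, Krt19, Krt17 and Krt42 in the DMSO and FGF2_Activin samples. In Esrrb_4OHT it made up 47.9%, 27.2% and 28.7%, while Krt19 made up 50.7%, 71.3% and 70.0%. Krt19 took 1.08% to 8.75% in DMSO and 3.00% to 5.26% in FGF2_Activin. Its share was also high in CH, at 55.3%, 48.6% and 32.0%, which overlapped Esrrb_4OHT, and in Esrrb_NT, at 29.9% to 40.1%. The summed level was low there, with 5.38 ± 0.466 CPM per kilobase (SD, n = 3) in CH and 4.78 ± 0.334 in Esrrb_NT, against 109 ± 13 in Esrrb_4OHT and 101 ± 66.0 in DMSO. In 2i the largest part in replicates 2 and 3 was Krt42, with 44.9% and 46.0%, out of a sum of only 3.42 ± 0.403 CPM per kilobase. Type I keratins outside the 8 genes are not in these shares and sums, nor in the ratios that follow. Among them Krt23 had a mean of 10.7 CPM in CH, where Krt19 had 3.87 CPM. Krt10 had a mean of 2.81 CPM in 2i, where Krt42 had 2.12 CPM. In CH, 2i and Esrrb_NT, where the sum was low, the make-up thus holds for the listed genes only. The type I sum was 3.08 to 4.29 times the type II sum of Krt7 and Krt8 in DMSO and FGF2_Activin, 1.57 to 3.24 times in CH, 1.40 to 2.99 times in Esrrb_NT, 1.14 to 1.88 times in Esrrb_4OHT and 0.727 to 0.990 times in 2i.

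Vim per kilobase was 0.0742 to 0.434 times the sum of Krt8 and Krt18 in DMSO and FGF2_Activin. It was 19.2 to 39.4 times that sum in CH and 25.5 to 27.2 times in 2i. In Esrrb_NT it was 12.4 to 20.0 times and in Esrrb_4OHT 0.424, 1.84 and 1.78 times. Among the treated samples only Esrrb_4OHT replicate 1 lay inside the range of DMSO and FGF2_Activin.

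**Figure D4:**
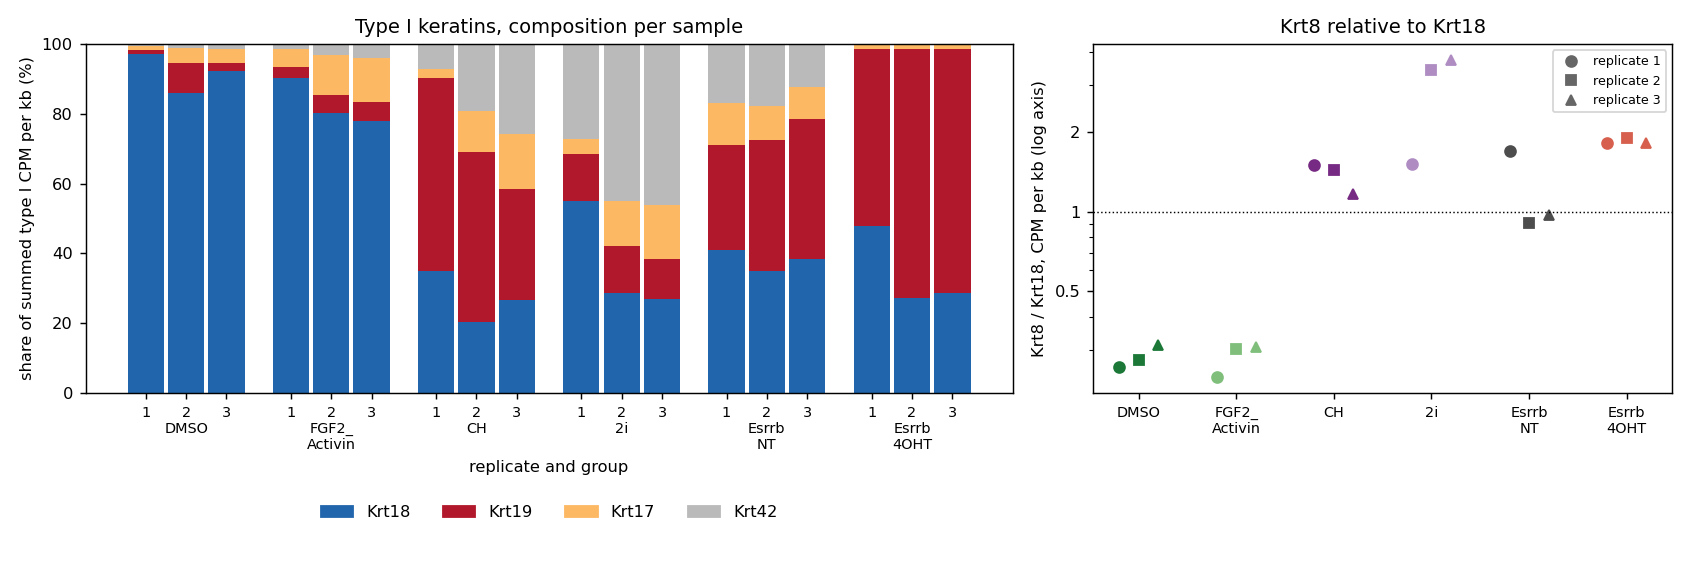
Left, share (%) of Krt18, Krt19, Krt17 and Krt42 in their summed CPM per kilobase, in bars from 0 to 100 for each of the 18 samples; right, the ratio of Krt8 to Krt18 in CPM per kilobase on a log axis, with a dotted line at equal levels. Krt18 fills 78.0% or more of each DMSO and FGF2_Activin bar and Krt19 50.7% to 71.3% of each Esrrb_4OHT bar.

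The wild-type change from CH to DMSO and the change from Esrrb_NT to Esrrb_4OHT share a starting condition, CHIR99021 at 3 µM, and no samples. The groups differ in line, passage and hours of culture, so that these cannot be told apart from the treatment. Their difference was taken in a fit of all 18 samples after the values were seen, and 14.8% of tested genes were called in it, 8.95% above 0 and 5.85% below 0. Krt19 differed by 4.96 (SE 0.55, adjusted p = 4.94e-06, edgeR) and Vim by 2.86 (SE 0.34, adjusted p = 9.72e-06, edgeR), both further up with Esrrb deletion. Krt8 and Krt18 gave 1.34 (SE 0.65, adjusted p = 0.118, edgeR) and -1.62 (SE 0.77, adjusted p = 0.107, edgeR). The block turned the Krt18 difference into a call (-1.58, adjusted p = 0.00164, edgeR), and both became calls without replicate 1 of every group, at 1.5 and -1.61. These last calls rest on replicates 2 and 3 alone, which over all genes lay closer to each other than to replicate 1.

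Replicate 1 stood apart for most of these genes. Krt18 in replicate 1 was 3.07 times the mean of replicates 2 and 3 in DMSO, 2.51 times in FGF2_Activin, 1.71 times in CH, 1.63 times in 2i and 2.09 times in Esrrb_4OHT, but 1.02 times in Esrrb_NT. Krt8 was 2.69, 1.95, 1.99, 0.689, 2.03 and 1.84 times in the same order of groups. Over all tested genes this ratio exceeded 2 for 7.06% in DMSO, 3.66% in FGF2_Activin, 8.54% in CH, 5.84% in 2i, 0.584% in Esrrb_4OHT and 0.927% in Esrrb_NT. Vim went the other way, at 0.534 times in DMSO, 0.760 times in FGF2_Activin and 0.481 times in Esrrb_4OHT, and stayed within 0.9 to 0.989 times in the other 3 groups. A ratio under 0.5 was seen for 2.45% of tested genes in Esrrb_4OHT. Where Krt18 and Krt8 were high, replicate 1 thus held more of both and less Vim.

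The neighbours Krt17 and Krt42 were low together in replicate 1 of CH and 2i. Krt17 was 0.217 and 0.260 times the mean of the other 2 samples there, and Krt42 0.364 and 0.492 times. In DMSO and FGF2_Activin Krt17 was 0.967 and 0.965 times. Replicates 2 and 3 of a group lay within 1.46 times of each other for every tested gene in every group, except Krt19 in DMSO, where they were 4.21 times apart. A replicate 1 above both others in all 4 wild-type groups was common: 3520 of 16413 tested genes, 21.4%, had it, Krt7 and Krt18 among them.

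**Figure D5:**
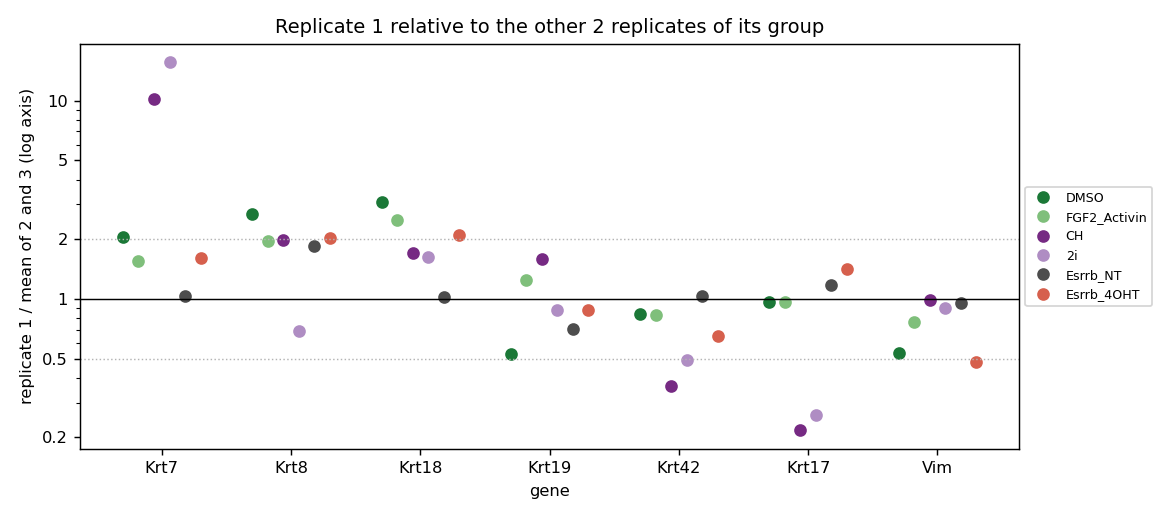
CPM of replicate 1 divided by the mean of replicates 2 and 3 (log axis) for the 7 tested genes, coloured by group; the solid line marks 1 and the dotted lines 0.5 and 2. Krt7 reaches 10.2 in CH and 15.6 in 2i, Krt18 lies above 1.6 in 5 of 6 groups, and Krt17 and Krt42 lie under 0.5 in CH and 2i.

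Genes for proteins that tie filaments to cell junctions were counted as a list, most of whose members did not pass the test. Of 13 tested linker genes of 15 listed, 3 fell and none rose in CH against DMSO, where 10.2% of all tested genes were called lower. In 2i against FGF2_Activin 4 fell and none rose, where 14.4% of all tested genes were called lower, and in Esrrb_4OHT against Esrrb_NT 4 rose and none fell, where 12.8% were called higher. Jup (plakoglobin), which was not called, had means of 139 CPM in FGF2_Activin and 264 CPM in 2i, and of 144 CPM in Esrrb_NT and 107 CPM in Esrrb_4OHT. The plakin Ppl (periplakin) was 27.2, 12.3 and 10.7 CPM in DMSO and 3.13, 1.41 and 1.36 CPM in CH, a log2 fold change of -3.09 (SE 0.48). Its partner Evpl (envoplakin) and the desmosomal plaque protein Pkp3 fell in the same comparison, by -2.42 (SE 0.26) and -2.36 (SE 0.31). Dsp (desmoplakin), which anchors keratin to desmosomes, rose from 1.49, 2.77 and 2.90 CPM to 27.3, 20.9 and 23.3 CPM with Esrrb deletion, a log2 fold change of 3.31 (SE 0.21). The median over the list was -0.43, -0.20 and 0.37 in the 3 comparisons.

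Other intermediate filament genes were counted in the same way. Of 14 tested of 15 listed, 4 fell and none rose in CH against DMSO (Prph, Des, Synm and Nes), where 10.2% of all tested genes were called lower and 7.51% higher. In 2i against FGF2_Activin 5 fell and 1 rose, where 14.4% were called lower and 9.13% higher. Of 12 tested in Esrrb_4OHT against Esrrb_NT 3 rose and 1 fell, where 12.8% were called higher and 3.87% lower. Nes (nestin), a filament protein that co-assembles with vimentin, was 88.8, 68.2 and 67.7 CPM in DMSO and 17.0, 25.2 and 16.3 CPM in CH, and rose from 22.3, 34.9 and 35.7 CPM to 205, 208 and 209 CPM with Esrrb deletion. Nestin therefore went against Vim in the wild-type comparison. Of 43 further keratins, 8 were tested in the wild-type cells, of which 1 rose and 3 fell in CH against DMSO and 1 rose and 5 fell in 2i against FGF2_Activin. In the Esrrb fl/fl cells 3 were tested and 1, Krt23, fell. The shares of all tested genes called in each comparison, given above for the other filament genes, apply to these keratins too.

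Krt23, a type I keratin, ran opposite to Krt18. It had 0 counts in all DMSO and FGF2_Activin samples, 7.70, 11.2 and 13.2 CPM in CH and 0.592, 1.98 and 1.87 CPM in 2i. Against a floor of 3 counts in each DMSO library, CH was at least 110-fold higher. With Esrrb deletion it went from 3.19, 3.48 and 2.85 CPM to 0.487, 0.526 and 0.861 CPM. Krt80, a type II keratin, was 6.94, 3.04 and 3.36 CPM in DMSO, 2.53, 1.71 and 1.91 CPM in FGF2_Activin and 0 in all CH samples. Unlike Krt7 and Krt8, it stayed at 0.0478 CPM or less in every Esrrb_4OHT sample.

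Of 26 tested regulators of epithelial or mesenchymal genes out of 28 listed, 5 rose and 8 fell in CH against DMSO, where 7.51% of all tested genes were called higher and 10.2% lower. In 2i against FGF2_Activin 6 rose and 10 fell, beside 9.13% and 14.4%, and in Esrrb_4OHT against Esrrb_NT 9 rose and 3 fell, beside 12.8% and 3.87%. Zeb1, a repressor of epithelial genes, was 0.320, 0.344 and 0.347 CPM in DMSO and 4.22, 10.2 and 10 CPM in CH, a log2 fold change of 4.58 (SE 0.53). It was 13.6 to 14 CPM in Esrrb_NT and still 7.69 to 11.8 CPM in Esrrb_4OHT, and was not called there. Grhl2, an activator of epithelial genes, was 68.6 to 97.8 CPM in DMSO and 8.45 to 30.6 CPM in CH, but 99.0 to 126 CPM in Esrrb_NT and 40.8 to 56.9 CPM in Esrrb_4OHT. Neither gene thus ran with Krt8 and Krt18 in all groups. The AP-1 subunit gene Fosl2 fell in that comparison by -2.92 (SE 0.33) and rose by 4.58 (SE 0.32) with Esrrb deletion. Jun, another AP-1 subunit, rose from 4.14, 2.46 and 2.07 CPM to 57.4, 31.4 and 32.5 CPM, with replicate 1 the highest as for Krt8 and Krt18. Ets1 rose by 3.02 (SE 0.26).

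Markers of other cell types that can carry these keratins were followed as lists. The 10 pluripotency genes summed to 2920 to 3130 CPM in DMSO, 3300 to 4270 CPM in CH, 4810 to 4960 CPM in Esrrb_NT and 2930 to 3130 CPM in Esrrb_4OHT, with Pou5f1 at 533 CPM or more in every sample. In CH against DMSO 4 rose and 1 fell, where 7.51% of all tested genes were called higher and 10.2% lower. With Esrrb deletion 1 fell, Sox2, from 301, 284 and 299 CPM to 43.4, 64.3 and 59.2 CPM, and none rose. Of all tested genes 12.8% were called higher and 3.87% lower in that comparison. Of the trophectoderm genes, a simple epithelium rich in Krt8, Krt18 and Krt7, 12 summed to 32.1 to 44.9 CPM in DMSO, 107 to 144 CPM in CH, 99.5 to 105 CPM in Esrrb_NT and 102 to 116 CPM in Esrrb_4OHT. Its defining markers did not go together. Cdx2 was 91.9, 54.1 and 45.4 CPM in CH and 15.9, 15.1 and 20.8 CPM in Esrrb_4OHT, while Elf5 stayed at 0.313 CPM or less in every sample. Eomes was 8.33 to 13.3 CPM in DMSO and 0.954 to 3.68 CPM in CH, a log2 fold change of -2.08 (SE 0.40). It was 15.7 to 29.6 CPM in Esrrb_NT and 13.7 to 26.8 CPM in Esrrb_4OHT. Gata3, from further down the list, stayed at 1.49 CPM or less in every sample. In CH against DMSO, 4 of 8 tested rose and 2 fell, beside 7.51% and 10.2% of all tested genes. With Esrrb deletion 3 of 8 rose (Gata2, Cdx2 and Esx1) and none fell, beside 12.8% and 3.87%.

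For primitive endoderm the 15 genes summed to 275 to 436 CPM in DMSO, 268 to 423 CPM in CH, 432 to 462 CPM in Esrrb_NT and 725 to 903 CPM in Esrrb_4OHT. The similar sums of DMSO and CH hid opposite changes. In CH against DMSO 2 of 13 tested rose and 5 fell, where 7.51% of all tested genes were called higher and 10.2% lower. Lama1 rose by a log2 fold change of 2.67 (SE 0.37), while Col4a1 (-2.59, SE 0.22), Sox7 (-2.51, SE 0.38) and Dab2 (-2.13, SE 0.21) fell. Ttr was at 0 in all samples, Afp at 0.103 CPM or less and Gata6 at 0.854 CPM or less. Sparc and Lamb1, neither of them called, made up most of the sum in Esrrb_4OHT, at 423 to 621 and 179 to 209 CPM. They were 276 to 316 and 101 to 113 CPM in Esrrb_NT. With Esrrb deletion 3 of 10 tested rose, where 12.8% of all tested genes were called higher and 3.87% lower. These were Col4a1 by a log2 fold change of 2.25 (SE 0.11), Pdgfra by 2.16 (SE 0.31) and Gata4 by 1.27 (SE 0.32). Sox7 fell, by -3.17 (SE 0.46). Mesoderm and mesenchyme genes, which can carry Vim, summed to 39.0 to 65.0 CPM in DMSO, 451 to 687 CPM in CH, 72.9 to 105 CPM in Esrrb_NT and 350 to 505 CPM in Esrrb_4OHT. The primitive streak gene T made up most of this, with 436 to 665 CPM in CH and 313 to 448 CPM in Esrrb_4OHT. In CH against DMSO 2 of 8 tested rose (T and Mixl1) and 2 fell (Thy1 and Eomes), beside 7.51% and 10.2% of all tested genes. With Esrrb deletion 5 of 8 tested rose and 1 fell, beside 12.8% and 3.87% of all tested genes. Mixl1 went from 0.425, 0.307 and 0.621 CPM to 9.20, 13.6 and 12.6 CPM.

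Surface ectoderm genes summed to 74.9 to 89.8 CPM in Esrrb_NT and 150 to 251 CPM in Esrrb_4OHT, with replicate 1 the highest. Krt5 and Krt14, the keratins of the basal epidermis, were at 0.292 CPM or less in all samples. Trp63, another defining marker, was 2.79, 1.47 and 1.72 CPM in CH and 0.0313 CPM or less in DMSO, a log2 fold change of 6.33 (SE 0.82). It was 0.154 to 0.319 CPM in Esrrb_NT and 0.718 to 1.27 CPM in Esrrb_4OHT. In CH against DMSO 2 of 8 tested rose and 2 fell, where 7.51% of all tested genes were called higher and 10.2% lower. Of 6 tested 3 rose and 1 fell with Esrrb deletion, beside 12.8% and 3.87% of all tested genes. Perp rose from 2.66, 1.79 and 2.53 CPM to 34.3, 23.4 and 26.8 CPM and Sfn from 71.4, 56.7 and 56.2 CPM to 205, 117 and 112 CPM. These 2 genes made up most of the Esrrb_4OHT sum. Tfap2a fell, by a log2 fold change of -2.17 (SE 0.21). Neural progenitor genes summed to 160 to 277 CPM in DMSO, 25.8 to 54.6 CPM in CH, 111 to 125 CPM in Esrrb_NT and 279 to 293 CPM in Esrrb_4OHT, with Sox1 at 0.797 CPM or less in all samples. Olig2 was 58.2 to 66.3 CPM in Esrrb_NT and 59.8 to 64.0 CPM in Esrrb_4OHT, but 0.0902 CPM or less in every wild-type sample. These sums therefore do not compare between the cell lines. Nes made up most of the Esrrb_4OHT sum, at 205 to 209 CPM, against 22.3 to 35.7 CPM in Esrrb_NT. In CH against DMSO 2 of 6 tested fell and none rose, where 10.2% of all tested genes were called lower and 7.51% higher. With Esrrb deletion, of 5 tested, Nes rose as given above and 2 fell, Pax6 by a log2 fold change of -1.70 (SE 0.29) and Tubb3 by -1.56 (SE 0.25). Of all tested genes 12.8% were called higher and 3.87% lower there. The part of these lists in the keratin and Vim levels was not tested.

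Across the 12 wild-type samples the levels most like those of Krt18, by Pearson's r of log2(CPM + 0.5) over 13220 genes, were Prom2, Klf7 and Plekha1, each at 0.995. For Krt8 they were Pard6b (0.987), Garem1 (0.985) and Tagln2 (0.982). Vim was most like Zfp553 (0.994), Eif2b4 (0.992) and Lrr1 (0.991), and Krt7 most like Nuak2 (0.980), Nptxr (0.978) and Pacs1 (0.975). Krt17 was most like Mmp25 (0.988), Tle1 (0.987) and Mdfi (0.982), Krt42 most like Rps6kl1 (0.959), Rxrb (0.940) and Serinc1 (0.939), and Krt19 most like Plppr2 (0.939), P3h2 (0.927) and Mkrn1 (0.927). Among the 7 genes themselves r was 0.97 between Krt8 and Krt18, -0.99 between Krt18 and Vim, 0.59 between Krt42 and Krt17 and 0.62 between Krt18 and Krt19. These values describe 12 samples that fall into the same 4 groups and carry no test.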

How the data were processed

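Poly(A) RNA of 18 mouse ES cell samples was sequenced with a directional kit. The deposited table holds raw read counts per Ensembl gene, which the authors obtained by aligning reads to mm10 with TopHat2 and counting them with HTSeq without strand. Of 49671 identifiers, 49412 were matched to symbols in GENCODE M21 (GRCm38). Total counts were 25388139 to 37158661 in wild-type and 19915222 to 20140699 in Esrrb fl/fl samples.

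From these counts, CPM was computed with TMM-scaled library sizes, separately for the 12 wild-type and the 6 Esrrb fl/fl samples, so that levels set side by side across the cell lines rest on separate scalings. edgeR 4.0.16 in R 4.3.3 (filterByExpr, glmQLFit and glmQLFTest) was fitted to each set across 16413 and 14893 genes, with adjusted p from the Benjamini-Hochberg method over all genes of a comparison. Genes were called at an adjusted p under 0.01 together with a log2 fold change beyond 1 in either direction. SE was the log2 fold change divided by the square root of F, and 95% intervals used the fit's degrees of freedom. Values per kilobase used the length of the longest transcript that GENCODE marks as principal, and shared sequence was searched with blastn 2.17.0. The fit was tested on counts simulated with the same dispersion for all genes and no shift of replicate 1. That test therefore does not cover the replicate 1 differences seen here. Precision is limited by counts for low genes and by having 3 samples in each group.

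Same-numbered samples deviated together: the correlation of their deviations from the group means was 0.379 to 0.831 over 18 wild-type pairs and 0.388 or more over 3 Esrrb fl/fl pairs, against -0.791 to 0.724 and -0.501 to 0.441 for different numbers. Replicates 2 and 3 of different groups correlated about as well as same-numbered ones, so that the data set replicate 1 apart but do not pair 2 and 3. Within groups, the chi-square per gene between the counts of 2 libraries was 1.46 to 8.57 for replicates 2 and 3. For pairs with replicate 1 it was 11.8 to 65.9. Adjusted p from fits without replicate 1 thus rests on a much smaller spread than in the main fits. The main fits carried no block. Since every same-numbered pair exceeded 0.1, fits with the replicate number as a block were run beside them, the labels giving only the number. Values with the block are given where they change a call. Alternatives were DESeq2 1.42.0, other filters, fits of other sets of samples, no minimum fold, the block, and leaving out each sample.

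The 8 genes, the gene lists and the tests were chosen with earlier results of these data known. Named were all 8 genes, Esrrb, and of each list up to 4 called genes with the largest change and at least 1 CPM in the higher group, with the defining markers of each cell type. The fit of all 18 samples for the difference between cell lines, leaving out replicate 1 in every group, and the levels of Krt80 in Esrrb_4OHT, Zeb1 in Esrrb fl/fl cells, Krt8-ps, Grhl2 and Jup were chosen after the values were seen. The levels of Krt10, Sparc, Lamb1 and Olig2 were also chosen then. Ttr, Afp and Gata3 were named outside the rule.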

Additional observations from a re-analysis of the deposited data

Results flagged for a closer look

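The changes from CH to DMSO and from Esrrb_NT to Esrrb_4OHT differed for 2 of the 7 tested genes in the fit of all 18 samples, where 14.8% of 17032 tested genes were called. With the replicate block 3 of the 7 were called, and without replicate 1 in every group 4. The share of all tested genes called was not counted with these 2 settings. Krt19 was the first, with a difference of 4.96 on the log2 scale (95% confidence interval 3.79 to 6.13, adjusted p = 4.94e-06, edgeR). It was higher in all 3 Esrrb_4OHT samples than in all 3 Esrrb_NT samples, whereas DMSO and CH samples overlapped. Vim was the second, with a difference of 2.86 (95% confidence interval 2.14 to 3.59, adjusted p = 9.72e-06, edgeR). It was lower in every DMSO than in every CH sample and higher in every Esrrb_4OHT than in every Esrrb_NT sample. Cell line, passage, hours of culture and the treatment cannot be told apart in either value.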

How the results depend on the processing

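Calls of Krt8 and Krt18 in CH against DMSO, 2i against FGF2_Activin and Esrrb_4OHT against Esrrb_NT, of Vim and Krt17 in 2i against FGF2_Activin, of Vim in CH against DMSO, of Krt19 in 2i against FGF2_Activin and of Krt7 and Krt19 after Esrrb deletion held in all alternatives run. The Krt17 call in CH against DMSO was lost with only the 6 samples compared (-2.26), its call after Esrrb deletion with all 18 samples in 1 fit (1.26), and that of Krt42 after Esrrb deletion there (-1.14), with DESeq2 (-1.13) and with no filter on low counts (-1.11). Where a result changed, the cause was not tested. The depth limits Krt42, Krt17 and, in CH, 2i and Esrrb_NT, Krt7, which rest on few reads, and Krt20, which was not tested.

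In 2i against CH the number of the 7 genes called was 0, and 1 (Krt19) with no filter on low counts, with the replicate block, with all 18 samples in 1 fit and with DESeq2. Without replicate 1 in every group it was also 1, but this was Krt8. Krt19 was not called there (-2.19, adjusted p = 0.0112, edgeR). The number of all genes called there was 326, and 672 with the block, 100 with only the 6 samples compared, 501 with all 18 samples, 605 with DESeq2 and 768 without replicate 1. In FGF2_Activin against DMSO the number of the 7 was 0, and 2 with the block, with DESeq2 and without replicate 1, and 1 with only the 6 samples or all 18. All genes called there were 205, and 424 with the block, 87 with only the 6 samples, 336 with all 18, 379 with DESeq2 and 499 without replicate 1. With no minimum fold, calls were 4750 in CH against DMSO, 6193 in 2i against FGF2_Activin and 6621 in Esrrb_4OHT against Esrrb_NT, against 2907, 3857 and 2485. For the difference of the first pair of wild-type changes, 1 of the 7 (Krt19) was called with the block, with all 18 samples and with DESeq2. Without replicate 1 there were 2, Krt17 and Krt8, and Krt19 was not called (2.09, adjusted p = 0.0395, edgeR). For the difference between cell lines 4 were called without replicate 1. The number of all genes called was not counted for either difference in any alternative. Without replicate 1, Krt19 in FGF2_Activin against DMSO was -0.10 and the Krt7 difference between cell lines -1.19. The block changed no call beyond those given with the results.

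Leaving out single samples, all genes called were 144 to 275 in 2i against CH and 112 to 171 in FGF2_Activin against DMSO, and the difference of wild-type changes was called for 0 to 1 of the 7. The following log2 fold changes, none of them called, crossed 0. In CH against DMSO they ranged from -0.66 to 0.57 for Krt19 and from -0.17 to 0.55 for Krt42. In FGF2_Activin against DMSO the ranges were -0.69 to 0.35 for Krt8, -0.85 to 0.49 for Krt18, -0.04 to 1.19 for Krt19 and -0.38 to 0.04 for Vim. In 2i against CH they were -1.36 to 3.18 for Krt7, -0.56 to 0.02 for Krt18 and -0.82 to 0.08 for Krt17. For the difference of wild-type changes they were -3.85 to 0.69 for Krt7 and -0.56 to 0.79 for Krt18, and for the difference between cell lines -1.37 to 1.10 for Krt7. With the union of all exons as gene length, the mean share of Krt19 among the listed type I keratins in Esrrb_4OHT was 60.3% in place of 64.0%.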
